A study of Saccharomyces cerevisiae with 95 samples.

Results

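The genes described here encode nuclear subunits of the mitochondrial respiratory chain and of the ATP synthase of Saccharomyces cerevisiae. They were listed by ORF name from the composition of the complexes. The list is not complete, and the members of each complex given below are those of the list. Of 4 other nuclear subunits of complexes III and V that were looked up, only 1, QCR10, was on the arrays. The list holds 34 of the 6132 ORFs on the arrays, with 4 genes of complex II, 8 of complex III, 2 of cytochrome c, 9 of complex IV and 11 of complex V. All 34 ORFs were found in the table and carried a symbol in the RefSeq annotation. Complex II comprises SDH1 (YKL148C), SDH2 (YLL041C), SDH3 (YKL141W) and SDH4 (YDR178W). Complex III comprises the core proteins COR1 (YBL045C) and QCR2 (YPR191W), the electron carriers CYT1 (YOR065W) and RIP1 (YEL024W), and the small subunits QCR6 (YFR033C), QCR7 (YDR529C), QCR8 (YJL166W) and QCR9 (YGR183C). Cytochrome c has the isoforms CYC1 (YJR048W) and CYC7 (YEL039C). The nuclear subunits of complex IV are COX4 (YGL187C), COX5A (YNL052W), COX5B (YIL111W), COX6 (YHR051W), COX7 (YMR256C), COX8 (YLR395C), COX9 (YDL067C), COX12 (YLR038C) and COX13 (YGL191W). Complex V holds the head and rotor subunits ATP1 (YBL099W), ATP2 (YJR121W), ATP3 (YBR039W), ATP15 (YPL271W) and ATP16 (YDL004W), the stalk subunits ATP4 (YPL078C), ATP5 (YDR298C), ATP7 (YKL016C) and ATP14 (YLR295C), and the membrane subunits ATP17 (YDR377W) and ATP20 (YPR020W).

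Complex II, succinate dehydrogenase, takes electrons from succinate and hands them to ubiquinone. Complex III, the cytochrome bc1 complex, passes them on to cytochrome c, and complex IV, cytochrome c oxidase, passes them from cytochrome c to oxygen. The protons moved by complexes III and IV drive complex V, the ATP synthase. Budding yeast ferments glucose even with oxygen present and then holds respiratory genes at a low level, whereas glycerol can be used only by respiration. HAP4, the regulated subunit of the Hap2/3/4/5 activator, is a known regulator of these genes.

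Expression was measured on 95 two-color arrays, and each value is a normalized log2 ratio of the Cy5 over the Cy3 sample. In log phase, 3 arrays of adh1 cells (BY4741 with ADH1 replaced by KANMX) and 2 of wild-type BY4741 cells each set a culture in YP-glycerol against a culture of the same strain in glucose medium. ADH1 encodes the main alcohol dehydrogenase of fermentation, and the mutant was chosen by the study because it grows faster on glycerol than on glucose, so that the carbon source and the growth rate point in opposite directions. The adh1 strain was also followed on 4 arrays after transfer to glycerol (0.5, 1, 2 and 4 h) and on 3 after transfer to fresh glucose (0.5, 2 and 4 h), each against the overnight culture from which the cells came.

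The other 83 arrays cover 10 chemostat courses, 5 under glucose limitation and 5 under histidine limitation. Every chemostat sample was set against a batch culture in medium limited in the same way, taken at late log phase. Both kinds of chemostat received DTT (6 mM), which reduces disulfide bonds, NaCl (0.4 M under glucose limitation and 0.31 M under histidine limitation) or a heat shock of 5 h (39 °C and 37 °C, each after 30 °C). Hydrogen peroxide (0.6 mM) and added glucose (from 0.02% to 0.04%) were given only under glucose limitation. Clotrimazole (10 microM), an inhibitor of ergosterol synthesis, and added histidine (from 2 mg/l to 4 mg/l) were given only under histidine limitation. The paper describes the perturbations as pulse-like additions that dilution cleared from the medium over about 5 h. The sample labels give BY4741 for all chemostats, while the study's methods give W303-1 bar1::P_ADH1-CFP-KANMX for histidine limitation, so that limitation, strain, salt dose and temperature cannot be told apart.

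Of the 3230 values of the 34 genes, 5 were missing and 3 were exactly 0. Between 5071 and 5672 ORFs had a value on a log-phase array and 5919 to 6013 on a transfer array, and every chemostat array held all 6132. The dyes were never swapped, which leaves any dye effect in the ratios, and precision is set by how many arrays there are. The spot of the deleted ADH1 read 5.60, 5.43 and 5.32 on the adh1 arrays, against 0.11 and 0.85 on the wild-type arrays. ADH2, a paralogue of ADH1, read 5.86, 5.65 and 5.27, against 0.02 and 0.55. By the labels both channels of an adh1 array hold the deletion strain, in which ADH1 itself should give no signal, so this spot cannot check the labels, and the share of ADH2 in its signal was not tested. Genes of alpha cells set the log-phase strains apart as well. SAG1, MF(ALPHA)1, MF(ALPHA)2 and STE3, a list chosen after their values were seen, lay between -5.44 and -3.45 on the adh1 arrays, and the 3 of them with values in wild type lay between -0.32 and 0.34. The methods give BY4741 as MATa, a mating type in which these genes are not expressed, so the adh1 values go against 1 MATa strain in both channels. The arrays are called adh1 below as labelled, and the part of this difference in the results was not tested.

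The first comparison asked how the subunits differed between glycerol and glucose in each strain. In adh1 cells 28 of the 32 genes with a value on all 5 arrays rose on glycerol and 1, COX5B, fell, in a fit in which 29.1% of all 4827 ORFs tested were called higher and 34% lower. In wild-type cells 31 of the 32 rose and none fell (27.7% of all ORFs higher, 33.0% lower), and only QCR8, at 0.22, missed the threshold. The median log2 ratio of the 32 genes was 0.70 in adh1 cells and 1.56 in wild type, against medians of -0.04 and -0.05 over all ORFs. Calls throughout are by limma at a Benjamini-Hochberg adjusted p under 0.05. QCR2 and COX4 had no wild-type value and could not be tested, and QCR2, a core protein of complex III, gave 0.28, -0.15 and 0.07 on the adh1 arrays.

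The head subunits of complex V had the largest increases in both strains. ATP1, the alpha subunit of the catalytic head, had log2 ratios of 1.83, 2.17 and 1.89 on the adh1 arrays, against 2.53 and 2.31 on the wild-type arrays. ATP2, the catalytic beta subunit, had 1.95, 1.88 and 1.96 in adh1 cells, against 2.51 and 2.82 in wild type. ATP4, of the peripheral stalk, had 1.76, 1.58 and 1.62, against 2.00 and 1.93. All 3 genes were thus between 3- and 4-fold higher on glycerol in adh1 cells, and every adh1 array lay below both wild-type arrays. In the limma fit the adh1 means were 1.96 ± 0.10 for ATP1, 1.93 ± 0.09 for ATP2 and 1.65 ± 0.08 for ATP4 (SE, Benjamini-Hochberg adjusted p 1.14e-05, 7.72e-06 and 9.51e-06), and in wild type ATP2 led with 2.67 ± 0.10, a 6.35-fold difference (adjusted p 1.37e-05), followed by ATP1 at 2.42 ± 0.12.

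The members of complex V were far from uniform. ATP5, the stalk subunit known for oligomycin sensitivity, gave 0.66, 0.63 and 0.52 on the adh1 arrays, against 0.63 and 0.32 on the wild-type arrays. ATP14, subunit h of the stalk, gave only 0.10, 0.13 and 0.15 in adh1 cells, against 0.29 and 0.34 in wild type. It was not called in adh1 cells (adjusted p 0.160) but was called in wild type (adjusted p 0.0164). The other head and rotor subunits stood between these extremes, with ATP3 at 1.46, 1.59 and 1.38 on the adh1 arrays, against 2.10 and 2.24 in wild type, and ATP15 at 0.63, 0.69 and 0.81, against 1.63 and 1.55. ATP16 had 1.87, 1.35 and 1.44, against 1.97 and 1.97. ATP7, ATP17 and ATP20 rose in both strains as well, by 0.77 to 1.30 in adh1 cells and by 0.72 to 2.26 in wild type. Over the 11 genes the mean was 1.18 ± 0.03 in adh1 cells and 1.67 ± 0.04 in wild type (SD, n = 3 and 2 arrays).

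Among the succinate dehydrogenase subunits, the order of the genes differed between the strains. SDH1, the flavoprotein, had 1.40, 1.33 and 1.05 on the adh1 arrays, against 1.84 and 2.01 on the wild-type arrays. SDH2, the iron-sulfur protein, had 0.82, 0.74 and 0.51, against 2.26 and 2.24, so that it was the highest of the 4 genes in wild type but not in adh1 cells. The membrane anchors SDH3 and SDH4 had 0.68, 1.15 and 0.57, and 0.21, 0.13 and 0.26, on the adh1 arrays, against 1.42 and 1.63, and 0.72 and 0.62, in wild type. All 4 passed the threshold in both strains, SDH4 in adh1 cells only just (adjusted p 0.0499). The SDH4 call was lost without any 1 of the adh1 arrays, with 0.19, 0.23 and 0.17 when replicates 1, 2 and 3 were left out (adjusted p 0.159, 0.118 and 0.157).

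Complex III had lower means than complexes II and V in both strains, 0.56 in adh1 cells and 1.44 in wild type over the 7 genes measured in both. The core protein COR1 had 0.82, 0.80 and 0.46 on the adh1 arrays, against 1.08 and 1.26 on the wild-type arrays. QCR9, a small subunit, had 0.93, 0.83 and 1.02, against 1.99 and 1.72, and QCR7 had 0.49, 0.14 and 0.24, against 1.29 and 1.42. QCR8, another small subunit, was the exception, with 0.32, 0.11 and 0.35, against 0.12 and 0.32, so that its values in the strains overlapped.

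Complex IV averaged 0.58 in adh1 cells and 1.39 in wild type over the 8 genes measured in both. Besides COX5A, the highest genes in adh1 cells were COX13, with 1.31, 1.00 and 0.89, against 1.92 and 1.51 in wild type, and COX7, with 0.89, 0.76 and 1.09, against 1.83 and 1.62. COX6, COX8, COX9 and COX12 lay between 0.17 and 0.78 on the adh1 arrays and between 0.66 and 1.58 on the wild-type arrays. COX4 had 0.83, 0.43 and 0.55 in adh1 cells.

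The isoform pairs split in adh1 cells. Of the alternative forms of subunit V of cytochrome c oxidase, COX5A, the aerobic form, gave 1.26, 1.31 and 1.32 on the adh1 arrays, against 2.33 and 2.27 on the wild-type arrays. COX5B, the form used at low oxygen, gave -0.82, -0.33 and -0.24, against 0.44 and 0.67. The pair thus moved in opposite directions on every adh1 array and in the same direction on both wild-type arrays. COX5B was the only gene of the list called lower in adh1 cells (adjusted p 0.0147), and without adh1 replicate 1, its lowest array, the value was -0.29 and the call was lost (adjusted p 0.0696). The wild-type increase of COX5B was likewise lost without wild-type replicate 2 (0.44, adjusted p 0.129).

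Of the cytochrome c isoforms, CYC1, the main one in aerobic cells, gave 0.79, 0.54 and 0.50 in adh1 cells, against 1.19 and 1.63 in wild type. CYC7, the minor one, gave 0.09, 0.17 and 0.16, against 0.91 and 1.09, and was called only in wild type (adjusted p 0.144 in adh1 cells). The remaining gene without a call in adh1 cells was QCR6, the acidic hinge protein of complex III, with 0.14, 0.27 and 0.29, against 1.12 and 1.60 in wild type. Similar sequences such as those of isoforms can share signal on arrays spotted with whole ORFs, which was not tested.

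**Figure D1:**
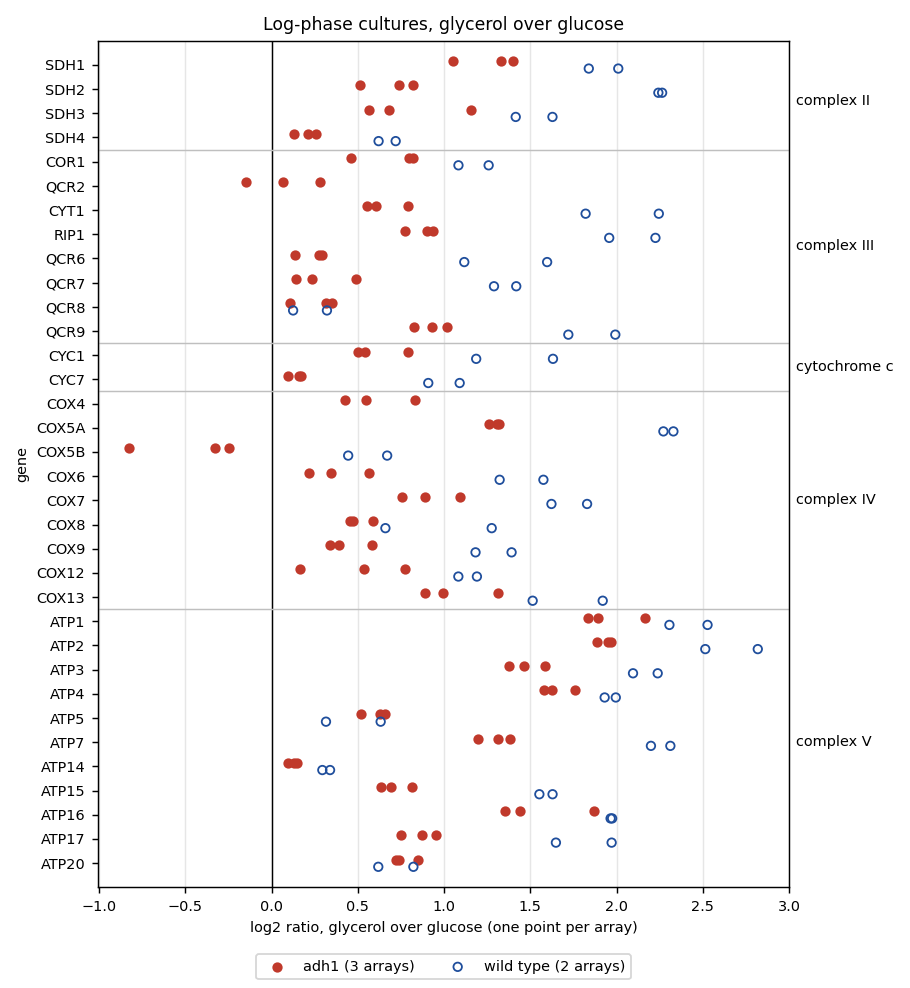
Log2 ratio of glycerol over glucose in log phase for each of the 34 genes, 1 point per array, with adh1 (3 arrays, filled) above wild type (2 arrays, open) in each gene's line and the genes grouped by complex. QCR2 and COX4 have no wild-type points, COX5B is the only gene with all its adh1 points below 0, and the strains overlap at QCR8, ATP5 and ATP20.

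The difference between the strains was then tested directly. The glycerol over glucose ratio was lower in adh1 cells than in wild type for 23 of the 32 genes and higher for none, where 11.8% of all ORFs tested were lower and 13.8% higher. The median difference over the 32 genes was -0.76, against -0.00 over all ORFs. A negative difference here is a lower ratio of glycerol over glucose on the arrays labelled adh1, not a lower level, since each strain was measured only against itself. The 23 genes comprised 4 of the 4 tested in complex II, 5 of 7 in complex III, both cytochromes c, 7 of 8 in complex IV and 5 of 11 in complex V. The mean differences were -0.85 for complex II, -0.88 for complex III, -0.83 for cytochrome c, -0.81 for complex IV and -0.49 for complex V. The genes without a call were COR1 and QCR8 of complex III, COX8 of complex IV and ATP1, ATP4, ATP5, ATP14, ATP16 and ATP20 of complex V, with differences from -0.48 to 0.13.

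The largest differences were those of electron carriers of complexes II and III. SDH2 differed by -1.56 ± 0.14 (SE, limma, adjusted p 0.000786). CYT1, cytochrome c1, had 0.79, 0.61 and 0.55 on the adh1 arrays, against 1.82 and 2.24 in wild type, a difference of -1.38 ± 0.16 (adjusted p 0.00234). RIP1, the Rieske iron-sulfur protein, had 0.77, 0.94 and 0.90, against 1.96 and 2.23, a difference of -1.22 ± 0.13 (adjusted p 0.0018). Each of the 3 genes was more than 2-fold apart between the strains, and the arrays of the strains did not overlap. COX5A and COX5B differed by nearly the same amount, -1.0 ± 0.11 and -1.02 ± 0.20 (adjusted p 0.00183 and 0.0125), although their levels relative to glucose were so unlike.

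Smaller differences were called for SDH1 (-0.66), SDH3 (-0.72), SDH4 (-0.47), CYC1 (-0.80) and CYC7 (-0.86), with limma adjusted p between 0.00433 and 0.0364. The calls of SDH1, SDH3, SDH4 and CYC1 depended on single arrays. That of SDH1 was lost without wild-type replicate 2 or adh1 replicate 2 (-0.58 and -0.70), and that of CYC1 without wild-type replicate 2, adh1 replicate 2 or adh1 replicate 3 (-0.57, -0.76 and -0.74). SDH3 kept its call only without adh1 replicate 2 and SDH4 only without wild-type replicate 2, and over the other omissions SDH3 lay between -0.83 and -0.61 and SDH4 between -0.50 and -0.42. No member had a higher ratio in adh1 cells past the threshold, and the 3 members with a value above 0 were QCR8 at 0.03, ATP20 at 0.05 and ATP5 at 0.13, with unadjusted p of 0.391 or more.

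Genes that act next to the complexes were read from lists chosen with results of these data known. HAP4 had log2 ratios of 1.5, 1.18 and 1.48 on the adh1 arrays, against 2.13 and 1.73 in wild type, and rose in both strains (limma adjusted p 7.7e-05 and 5.68e-05). The difference of -0.54 between the strains did not pass the threshold (adjusted p 0.0578). Among 8 regulators of respiration, 5 rose and 1 fell in each strain, where 29.1% of all ORFs rose and 34% fell in adh1 cells and 27.7% rose and 33.0% fell in wild type. HAP1, the heme-responsive activator, fell by 1.07 in adh1 cells, and ROX1, the repressor of hypoxic genes, rose by 1.62 in wild type.

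QCR10, a subunit of complex III outside the list, differed more between the strains than any gene of the list, with 0.74, 0.74 and 0.59 on the adh1 arrays, against 2.35 and 2.80 in wild type, and a difference of -1.89 ± 0.16 (adjusted p 0.000748). All 6 dehydrogenases that deliver electrons to the chain rose in both strains (29.1% of all ORFs rose in adh1 cells and 27.7% in wild type). GUT2, the mitochondrial glycerol-3-phosphate dehydrogenase, led with 4.44 ± 0.15 in adh1 cells and 3.78 ± 0.18 in wild type, and DLD1, D-lactate dehydrogenase, followed with 3.81 ± 0.16 and 2.96 ± 0.20. Between the strains 2 of these 6 had a higher ratio in adh1 cells, CYB2, L-lactate cytochrome c oxidoreductase (1.49), and DLD1 (0.85), and 1 had a lower ratio (13.8 and 11.8% of all ORFs). The median difference over the 6 genes was 0.44, against -0.76 over the subunits.

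INH1 and STF2, the inhibitor of the ATP synthase and a factor named for stabilizing it, rose in both strains, STF2 by 1.61 in adh1 cells and by 2.85 in wild type. Of 5 carriers and porin, 4 rose in adh1 cells, led by the phosphate carrier MIR1 (1.81) and the ADP/ATP carrier PET9 (1.70), and 5 rose in wild type, led by porin, POR1 (2.25), and MIR1 (2.06). SDH1b, a paralogue of SDH1, rose by 1.15 and 1.64. Assembly factors and translational activators were mixed, with 17 higher and 2 lower of 27 tested in adh1 cells and 14 higher and 4 lower in wild type (of all ORFs, 29.1% higher and 34% lower in adh1 cells, 27.7 and 33.0% in wild type). SCO1 and CBP4, which help to assemble complexes IV and III, rose most in both strains (1.19 and 0.97 in adh1 cells, 1.03 and 1.12 in wild type). Of 7 tested genes of ubiquinone synthesis, 3 rose and 2 fell in adh1 cells and 1, COQ3, rose in wild type. Of 8 genes of heme synthesis, 3 rose and 4 fell in adh1 cells and 2 rose and 4 fell in wild type, with HEM13, the oxygen-dependent coproporphyrinogen oxidase, at -1.42 and -1.09. The 7 mitochondrially encoded subunits were not analysed here.

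The transfer arrays followed the step to glycerol over time in adh1 cells, with 1 array per time point and therefore no test. The mean log2 ratio over the subunits was 1.62, 1.49, 1.06 and 1.03 at 0.5, 1, 2 and 4 h in glycerol. At these times 27, 28, 21 and 19 of the genes were up at least 2-fold, where 11.8, 9.98, 9.17 and 6.58% of all ORFs were. In fresh glucose the mean was 0.12, -0.06 and 0.40 at 0.5, 2 and 4 h, with 1, 1 and 5 genes up 2-fold (9.7, 8.89 and 6.71% of all ORFs) and 2, 1 and 0 down 2-fold (6.23, 5.21 and 3.56%). The high values were thus already present on the first glycerol array, and no subunit was down 2-fold at any time in glycerol (9.76, 6.34, 7.44 and 4.18% of all ORFs at 0.5, 1, 2 and 4 h).

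Cytochrome c and complex II stood highest at the first time. CYC7 had the highest value of the list, 4.13 at 0.5 h, and then 2.78, 1.03 and 0.74, while CYC1 had 1.33, 1.87, 1.26 and 1.86. The minor isoform was therefore transiently far above the major one, relative to the overnight culture, and the order had turned by 2 h. SDH1 and COX13, a small subunit of complex IV, were next at 0.5 h, with 2.55 and 2.45. The lowest values at 0.5 h were those of COX6 (0.73), ATP3, the gamma subunit of complex V (0.76), and COX5B (0.78).

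COX5A and COX5B differed here too. COX5A had 1.25, 1.44, 1.44 and 1.73 over the 4 times in glycerol, and COX5B had 0.78, 0.20, -0.75 and 0.00. In fresh glucose COX5A had 0.72, 0.66 and 0.56 and COX5B had -1.17, -0.56 and 0.92. SDH4, low in the log-phase comparison, was among the high genes here, with 2.36, 2.00, 1.33 and 0.90 in glycerol. QCR2, near 0 on the log-phase adh1 arrays, had 2.41, 2.05, 1.57 and 1.40. QCR10 had 0.01, -0.06, 0.11 and 0.32 and so did not share the course of the 34 genes, while HAP4 had 1.12, 1.18, 0.41 and 0.45. In glycerol the 4 alpha-cell genes lay between -0.87 and 0.84 at 0.5 h and between -2.11 and 0.63 at 1 h. They lay between -2.40 and -0.24 at 2 h and between -3.49 and -2.24 at 4 h. In fresh glucose they lay between -0.19 and 1.14, and their part in the transfer values was not tested.

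**Figure D2:**
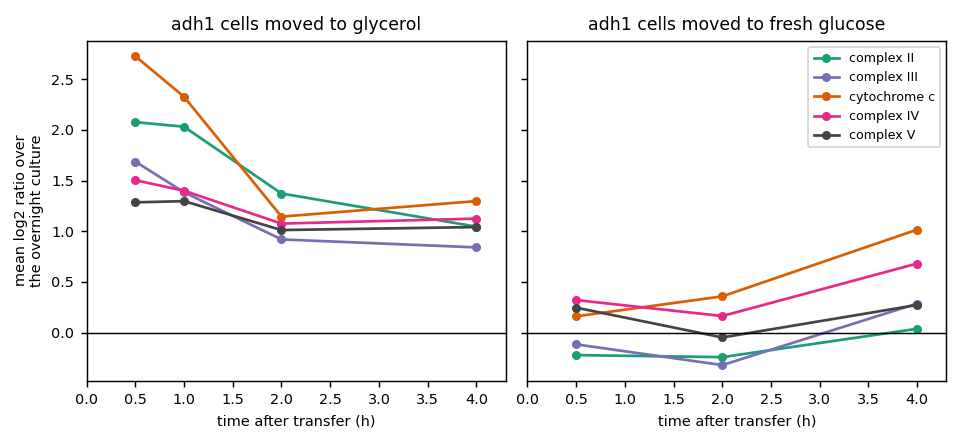
Mean log2 ratio over the overnight culture for the subunits of each complex in adh1 cells, against the time in h after transfer to glycerol (left) or to fresh glucose (right), 1 array per point. In glycerol every complex lies above 0 at all 4 times, with cytochrome c at 2.73 and complex II at 2.08 at 0.5 h, and in fresh glucose the means lie between -0.32 and 1.02.

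The steady states set the unperturbed chemostats against their batch cultures. The calls test the ratio against 0 and leave out the spread of the batch culture, so their p-values measure only the spread between courses. Whether the courses of a limitation were separate cultures is not stated, so they may not be independent. Under glucose limitation 30 of the 34 genes were lower than in the batch culture and none was higher (14.8% of all 6132 ORFs lower, 13.9% higher). Under histidine limitation 10 were higher and 1, COX5B, was lower (18.2% higher, 16.5% lower). The mean over the genes was -0.67 ± 0.12 over 5 glucose-limited courses and 0.11 ± 0.11 over 4 histidine-limited courses (SD). It lay below 0 in all 5 glucose-limited courses and above 0 in 3 of the 4 histidine-limited ones. The difference between the limitations was not tested, since medium, strain and batch culture differ together.

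Complex II was lowest under glucose limitation. SDH1 had -1.41, -1.50, -1.53, -1.49 and -1.72 in the glucose-limited courses of DTT, heat shock, NaCl, H2O2 and glucose addition, against -0.27, 0.30, -0.56 and -0.10 in the histidine-limited courses of heat shock, NaCl, clotrimazole and histidine addition. SDH2 had -1.23, -1.13, -1.14, -1.50 and -2.02, against 0.56, 0.53, 0.06 and 0.36 in the same order. The glucose-limited means were -1.53 ± 0.10 and -1.40 ± 0.12 (SE, limma adjusted p 1.41e-06 and 8.76e-06), which are 2.89- and 2.65-fold below the batch culture. SDH3 (-0.89) and SDH4 (-0.51) were called too, and over the 4 genes the mean was -1.08 ± 0.11 (SD, n = 5).

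COX8, a small subunit of complex IV, followed with -0.97 ± 0.13 (adjusted p 0.000223), at -0.58, -1.31, -1.32, -0.56 and -1.06 in the 5 glucose-limited courses, against 0.08, 0.18, -0.43 and 0.01 in the 4 histidine-limited ones. COX5A and COX5B (-0.93 and -0.77) and CYC1 and CYC7 (-0.66 and -0.80) were all lower under glucose limitation, with no split within the pairs. Complex V had the mean closest to 0, at -0.49 ± 0.14 over its 11 genes (SD, n = 5). The 4 genes without a call were all of complex V, with mean values of -0.11 for ATP4, -0.19 for ATP5, -0.25 for ATP16, the delta subunit, and -0.26 for ATP17.

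Under histidine limitation the largest increases were those of ATP16 (0.44 ± 0.12), QCR2 (0.44 ± 0.11) and ATP3 (0.41 ± 0.13), with limma adjusted p of 0.0146, 0.0098 and 0.0315. ATP16 had 0.31, 0.95, 0.06 and 0.45 in the courses of heat shock, NaCl, clotrimazole and histidine addition. QCR2 had 0.24, 0.81, 0.30 and 0.39, and ATP3 had 0.37, 0.85, 0.07 and 0.36. All 3 were highest in the NaCl course, and without it they had 0.27, 0.31 and 0.26 and lost their calls (adjusted p 0.0741, 0.0573 and 0.171). ATP16 and ATP3 also lost them without the course of histidine addition (0.44 and 0.43), and ATP3 without heat shock (0.42). Without the NaCl course 5 of the 34 genes were called, and 7 without the heat shock or the histidine addition course.

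COX5B was lower in both limitations, with -0.76, -0.89, -0.82, -1.10 and -0.26 under glucose limitation and -0.52, -0.78, -0.42 and -0.27 under histidine limitation (mean -0.50, adjusted p 0.00791). SDH2, SDH3, QCR2, RIP1, QCR9, COX13, ATP2, ATP3, ATP7, ATP14, ATP16 and ATP17 lay below 0 in every glucose-limited and above 0 in every histidine-limited steady state. These are 12 of the 34 genes, against 223 of all 6132 ORFs or 3.64%, and none had the opposite order. HAP4 was lower under glucose limitation (-1.03 ± 0.12, adjusted p 7.75e-05) and higher under histidine limitation (0.40 ± 0.13, adjusted p 0.0348). The second of these calls was lost without the courses of heat shock, NaCl or histidine addition (0.29, 0.33 and 0.38). Of the genes near the chain, 4 of the 6 dehydrogenases (led by DLD1 at -1.02 and NDI1, the internal NADH dehydrogenase, at -0.93) and all 3 paralogues of succinate dehydrogenase subunits were lower under glucose limitation (14.8% of all ORFs), and under histidine limitation 1 dehydrogenase was higher and 2 were lower (18.2 and 16.5% of all ORFs).

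Repeat arrays gave a measure of the noise around these baselines. In the 3 histidine-limited courses sampled at 2 times before onset, the mean over the subunits differed by 0.03, 0.02 and 0.08 between the arrays. No gene of the list differed by 2-fold, and the largest single difference was 0.50, for ATP15.

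**Figure D3:**
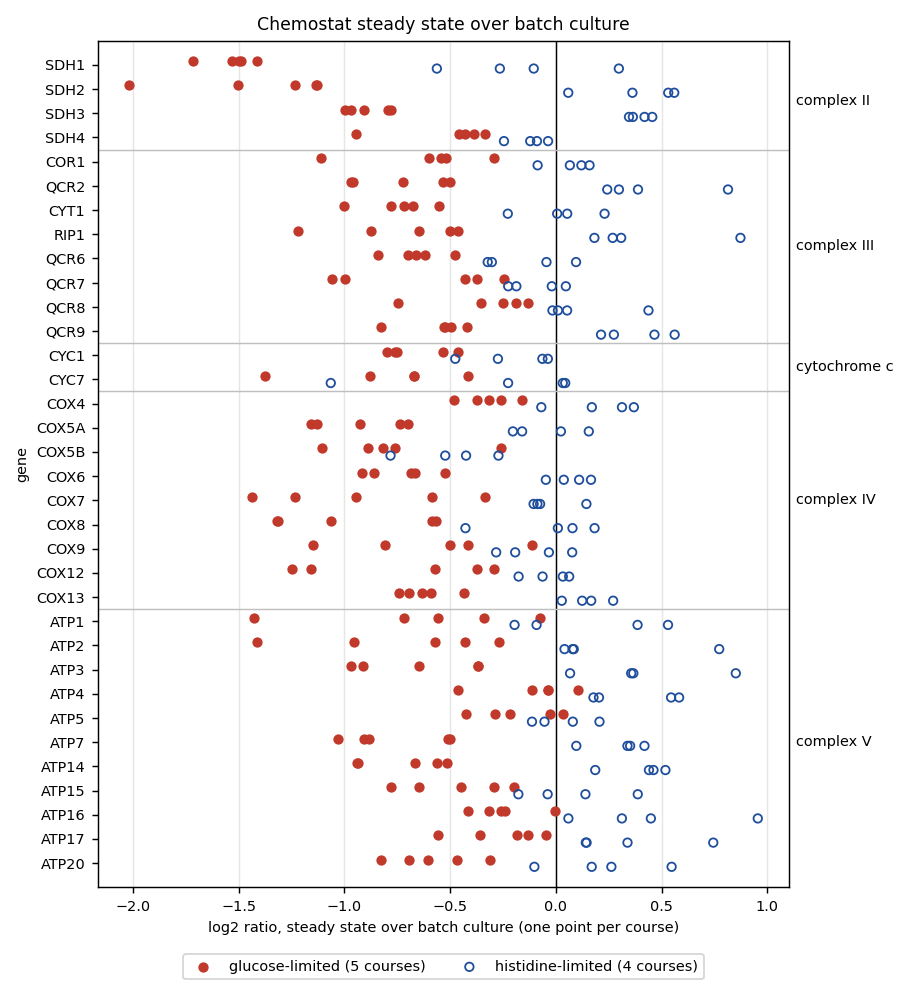
Log2 ratio of the chemostat steady state over the batch culture for each gene, 1 point per course, with glucose limitation (5 courses, filled) above histidine limitation (4 courses, open) in each gene's line. SDH1 and SDH2 lie lowest under glucose limitation, at means of -1.53 and -1.40, and most histidine-limited points lie between -0.5 and 0.5.

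The courses after a perturbation are given as the change from the steady state of the same course. Each glucose-limited course, and that of added histidine, had a single array before onset. Any deviation of that array is carried into all later values of the course. Added glucose gave the lowest mean of all first arrays. At 0.25 h after the glucose was added, the mean over the subunits was -1.67, all 34 genes were below 0 and 30 were down at least 2-fold, where 9.85% of all ORFs were. Complex II stood at -2.45, cytochrome c at -2.36, complex III at -1.93, complex V at -1.35 and complex IV at -1.34. The lowest genes were SDH3 (-3.33), CYT1 (-3.22) and SDH2 (-3.13), and the highest were COX4 (-0.43), SDH4 (-0.46) and QCR2 (-0.50).

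The mean was above 0 on the next array, where 7 of the 34 genes were still below 0 and SDH4, at -0.96, was lowest. The means at 1.08, 1.58, 3.08, 5.08, 8.08 and 9.8 h were 0.32, 0.43, 0.69, 0.65, -0.02 and 0.27. SDH1 had -2.88 at 0.25 h, then 1.09, 1.5, 1.81, 2.09, 0.55 and 1.19, so that it was above its steady state on all 6 later arrays. These values share the array before onset, where SDH1 was the lowest of its glucose-limited steady states (-1.72, others -1.53 to -1.41). SDH1 also ended the glucose-limited courses of NaCl, H2O2 and heat shock high (1.10, 1.23 and 1.20), but not that of DTT (0.05). HAP4 had -1.53 on the first array. Only 1 course with added glucose was run, so these values have no replicate. After added histidine the means lay between 0.08 and 0.21 over 7 arrays from 0.17 to 22.12 h.

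NaCl gave opposite means on the first array in the 2 limitations. At 0.25 h under glucose limitation the mean was -0.87, with 17 genes down and 3 up at least 2-fold (13.6 and 10.1% of all ORFs), and at 0.23 h under histidine limitation it was 0.33, with 4 genes up and 0 down (9.2 and 9.23%). Under glucose limitation the low values held at 0.75 h (-0.92, 20 genes down, 4.19% of all ORFs) and had turned by 3 and 5.08 h (0.39 and 0.52). CYC1 had -3.04 and -3.34 on the first 2 arrays under glucose limitation, and -0.61 on the first under histidine limitation. SDH2 had -2.12, against 0.90, and ATP1 and ATP2 had -2.08 and -2.0, against 0.13 and 0.21.

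The 3 genes up 2-fold under glucose limitation were SDH4 (2.74), COX5B (1.64) and ATP5 (1.13). The same genes had 1.31, 1.45 and 1.52 under histidine limitation, where CYC7 was the highest of the list with 1.90, against -0.50 under glucose limitation. SDH4 thus had the opposite sign to the rest of its complex under glucose limitation, where SDH1, SDH2 and SDH3 stood at -1.33, -2.12 and -0.86, and the same sign under histidine limitation (0.91, 0.90 and 0.97). HAP4 was low in both, at -1.80 and -1.31. Dose and strain differed between these courses, and there was 1 course of each.

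Hydrogen peroxide, given only under glucose limitation, gave high values of both cytochromes c. CYC1 and CYC7 had 3.43 and 2.82 at 0.25 h, 1.64 and 2.26 at 1.2 h, and 0.56 and 0.75 at 2.83 h. The mean over the subunits was 0.59 at 0.25 h, with 3 genes up 2-fold (4.19% of all ORFs), the third being QCR2 at 1.36. SDH4 was lowest, at -0.81, followed by COX13 (-0.07) and ATP4 (0.07). HAP4 had 1.45 on this array. By 1.2 h the means of complexes II, IV and V were -0.33, -0.27 and -0.32, while cytochrome c was still at 1.95. QCR2 had 0.49 at that time and between 1.06 and 1.68 on the 5 later arrays, up to 28.32 h. It ended the other glucose-limited courses at 1.41 (heat shock), 0.81 (NaCl), 1.38 (added glucose) and 0.09 (DTT). High late values of QCR2 were thus not particular to the peroxide course.

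In the heat courses the lowest means fell on the first array after the heat ended at 5 h. Under glucose limitation the mean was 0.13 at 0.25 h and -0.69 at 5.25 h, just after the heat ended, with 9 genes down 2-fold (3.46% of all ORFs), and it was 0.22, 0.33 and 0.32 at 6.33, 9.63 and 16.05 h. Under histidine limitation the mean was 0.53 at 0.25 h, with 33 of the 34 genes above 0, and -0.19 at 4.88 h, still in the heat. It was -0.53 at 5.38 h, after the heat ended, with 3 genes down 2-fold (0.799%). ATP1 was the lowest or second lowest gene on every glucose-limited array, with -1.03, -2.18, -2.01 and -2.04 up to 5.25 h, and had 0.34, -0.03, -0.24, -0.04 and -0.38 up to 5.38 h under histidine limitation. CYC1 and CYC7 had opposite signs at 0.25 h under glucose limitation, with -1.20 and 1.22, against 0.04 and 0.84 under histidine limitation.

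DTT gave its lowest means hours after onset. Under glucose limitation the mean was -0.21 at 0.33 h and lowest at 14.25 h (-0.54), where SDH2 had -1.95. Under histidine limitation it was -0.41 at 0.25 h and lowest at 3.1 h (-0.82), with 16 genes down 2-fold (6.02% of all ORFs). The first array was thus not the lowest in either limitation. CYC1 was the lowest gene at 0.25 h under histidine limitation, with -2.69, against -0.01 at 0.33 h under glucose limitation. Complex V was not low at that time, with a mean of 0.21 and ATP7, of the peripheral stalk, at 1.09. COX6 (-2.28), CYC1 (-1.94) and COX4 (-1.92) were lowest at 3.1 h. No array preceded onset in the DTT course under histidine limitation, and the mean steady state of the other histidine-limited courses stands in for it.

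Clotrimazole, given only under histidine limitation, gave low values of cytochrome c and of complexes III and IV on its first array. At 0.25 h the means were -2.09 for cytochrome c, -0.97 for complex III, -0.80 for complex IV, -0.29 for complex II and -0.03 for complex V. CYC1 (-2.42), RIP1 (-1.95) and CYT1 (-1.93) were lowest, and 6 genes were down 2-fold, where 0.995% of all ORFs were. ATP15, the epsilon subunit (0.32), ATP20 (0.20) and ATP16 (0.06) were the only genes above 0. At 1.2 h the mean was 0.06. Some genes were low again later, with cytochrome c at -0.72 and -1.06 at 9.78 and 14.18 h. ATP1 had -1.77 and COR1 -1.36 at 9.78 h, where the mean over the subunits was -0.04 and complex II was at 0.47. HAP4 had -1.03 on the first array, and -0.91 and -0.79 at 9.78 and 14.18 h.

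**Figure D4:**
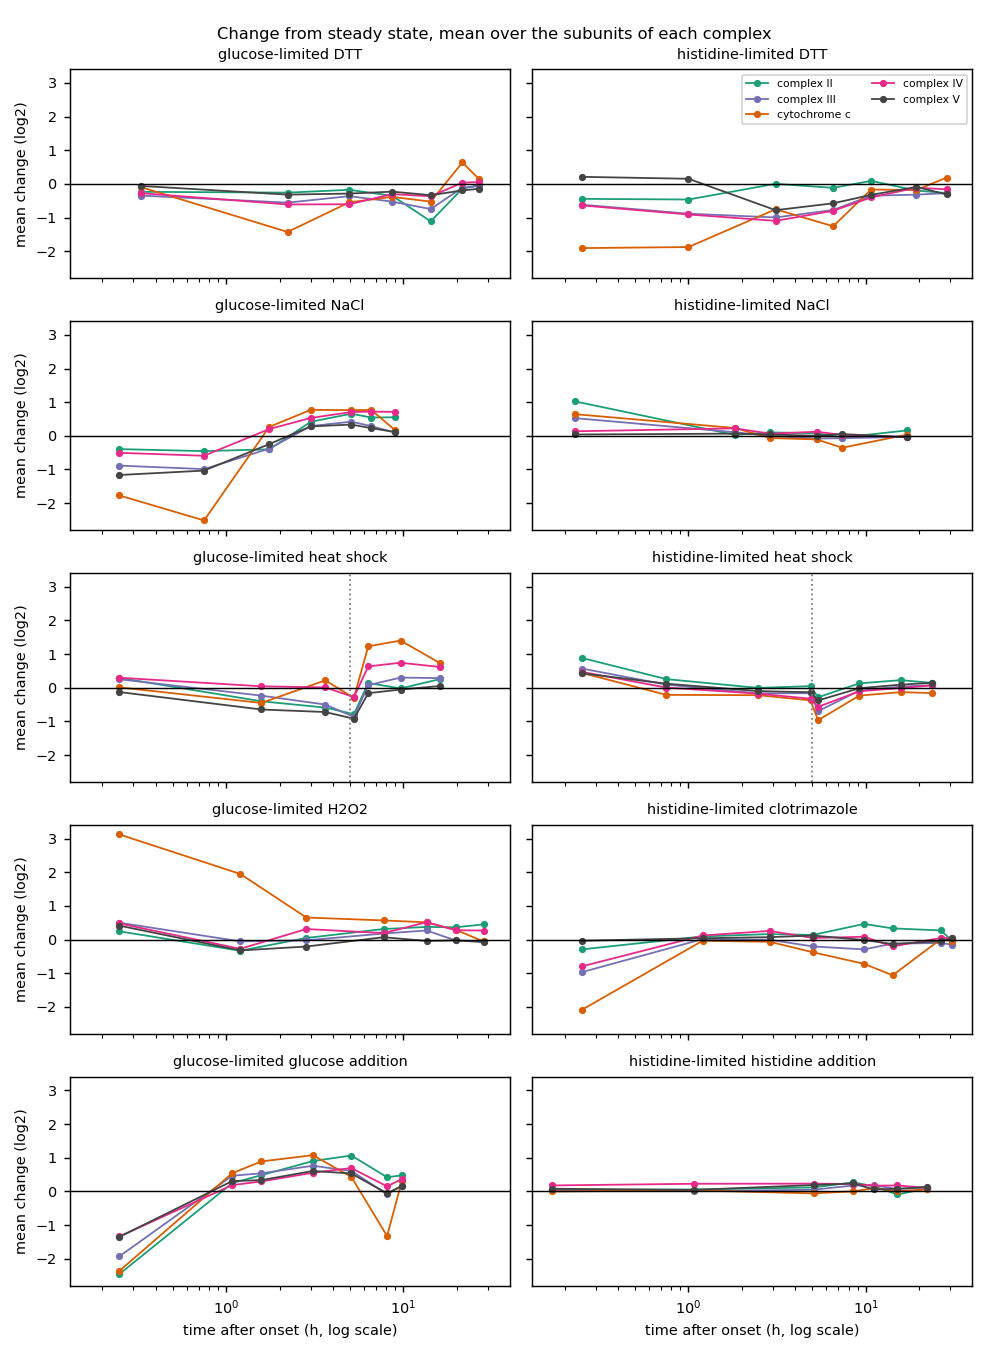
Mean change from the steady state (log2) for the subunits of each complex in the 10 chemostat courses, against the time in h after onset on a log scale, with glucose limitation on the left and histidine limitation on the right. Dotted lines mark the end of the heat at 5 h, and the lowest point is cytochrome c under glucose limitation at 0.75 h after NaCl, at -2.51.

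**Figure D5:**
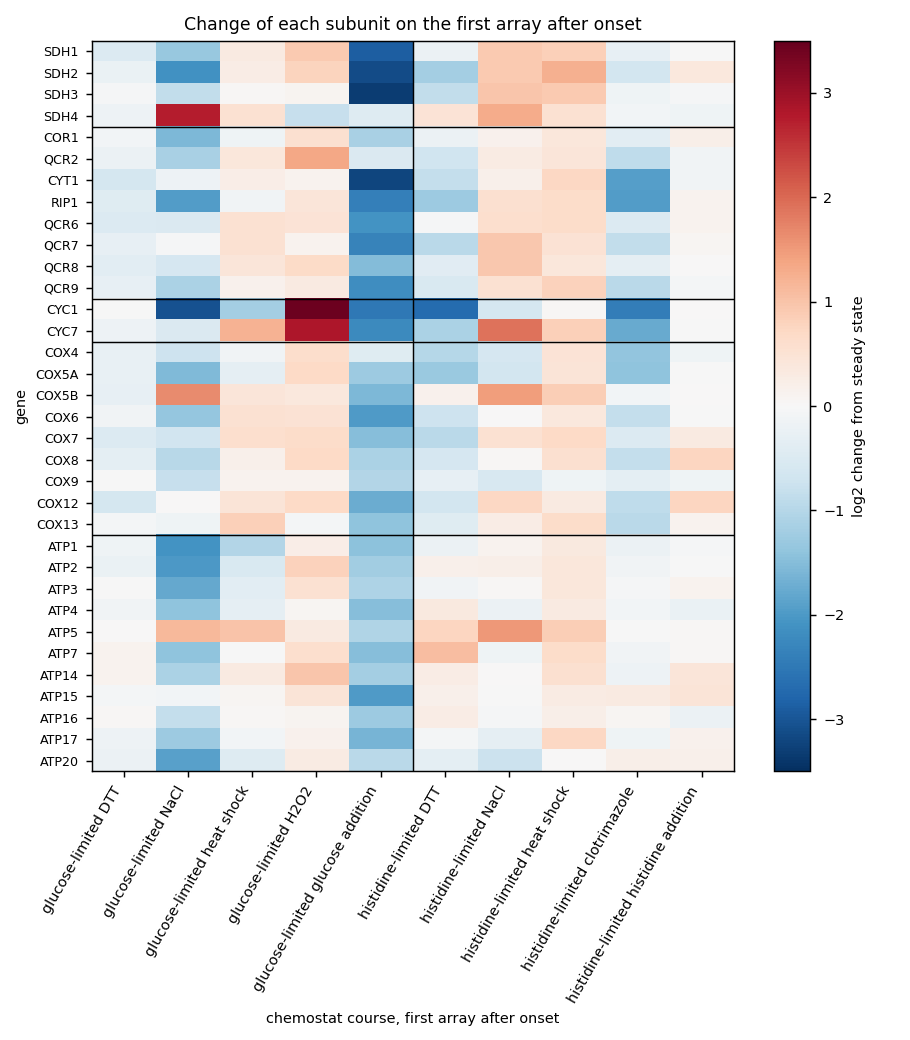
Change of each of the 34 genes from the steady state (log2, color) on the first array after onset in each course, with the glucose-limited courses in the left 5 columns and lines between the complexes. Glucose addition is below 0 for every gene, from -3.33 to -0.43, and SDH4, COX5B and ATP5 stand out from their neighbours after NaCl.

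A shared response to stress was tested over 7 courses of DTT, NaCl, H2O2 and heat shock, with the course as the replicate. On the first array after onset 1 of the 34 genes, ATP5, rose, where 6.47% of all ORFs were called higher and 8.37% lower. Its change was 0.01, 1.00, 1.13 and 0.32 in the glucose-limited courses of DTT, heat shock, NaCl and H2O2 and 0.76, 0.87 and 1.52 in the histidine-limited courses of DTT, heat shock and NaCl. It was above 0 in all 7, with a mean of 0.80 ± 0.18 (SE, limma adjusted p 0.0243). The call was lost without glucose-limited heat shock or without histidine-limited DTT, heat shock or NaCl (0.77, 0.81, 0.79 and 0.68, adjusted p 0.0662 to 0.0755), and in each of these fits the number of ORFs called over the whole table fell to 0 as well, against 910 with all courses. Without glucose-limited DTT COX5B was called too (0.82, adjusted p 0.0308).

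The other genes spread widely over the stresses. CYC1 lay between -3.04 and 3.43 with a mean of -0.58 (adjusted p 0.564), CYC7 between -1.12 and 2.82 with a mean of 0.71 (adjusted p 0.277) and SDH4 between -0.81 and 2.74 with a mean of 0.66 (adjusted p 0.218). SDH1, SDH2 and SDH3 had means of 0.14, -0.05 and 0.04, and COX5A and COX5B of -0.42 and 0.66 (adjusted p 0.301 and 0.0789). The mean over all 34 genes was 0.01 ± 0.53 (SD, n = 7) and was above 0 in 4 courses. The median of the genes was -0.02, against 0.01 over all ORFs.

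From 1.5 to 5 h after onset no gene of the list was called, and none of all 6132 ORFs was (limma, lowest adjusted p 0.154). At an unadjusted p under 0.05 stood 8 members with lower and 1 with higher values, where 5.71% of all ORFs were lower and 5.92% higher. The largest of these was ATP1 at -0.74 ± 0.26 (SE, adjusted p 0.366), at -0.18, -2.10, -0.51 and -1.17 in the glucose-limited courses of DTT, heat shock, NaCl and H2O2 and -1.38, -0.14 and 0.33 in the histidine-limited courses of DTT, heat shock and NaCl. CYT1 had -0.66 (adjusted p 0.332) and RIP1 -0.55 (adjusted p 0.38). The mean over the 34 genes was -0.22 ± 0.35 (SD, n = 7), between -0.82 after histidine-limited DTT and 0.12 after glucose-limited NaCl.

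The early change was also compared between limitations within DTT, NaCl and heat shock, as glucose-limited minus histidine-limited, over 3 differences. No gene of the list and none of all ORFs passed the threshold (limma, lowest adjusted p 0.443), and at an unadjusted p under 0.05 stood 5 members, all lower, where 5.41% of all ORFs were lower and 3.16% higher. These were ATP1, ATP2, ATP4, ATP7 and SDH1, named after their values were seen. SDH1 differed by -0.28 for DTT, -2.24 for NaCl and -0.52 for heat shock. ATP2 differed by -0.42, -2.21 and -0.92. The mean over the 34 genes was 0.20 for DTT, -1.20 for NaCl and -0.40 for heat shock, so that it was not of one sign.

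Over the 71 arrays after onset, most genes of the list followed the mean of the others. As a description across arrays, which share cultures and baselines, the Pearson correlation of a gene with the mean of the other 33 was highest for QCR9 (0.89), COX6 (0.88) and SDH2 (0.86). It was lowest for SDH4 (-0.48), ATP5 (0.03) and COX5B (0.10), the same genes that were up 2-fold after NaCl under glucose limitation. Those NaCl arrays are among the 71, so this overlap is partly built in. Between the isoforms the correlation was 0.75 for CYC1 and CYC7 and -0.14 for COX5A and COX5B. Within complex II it was 0.81 for SDH1 and SDH2 and -0.42 for SDH1 and SDH4, and within complex V 0.83 for ATP1 and ATP2 and -0.15 for ATP1 and ATP5. HAP4 correlated with the mean of the 34 genes at 0.56, but the signs differed in places. After glucose-limited DTT HAP4 had 1.24 and 1.26 at 8.63 and 14.25 h, where the mean was -0.34 and -0.54. On the first histidine-limited arrays of DTT and NaCl HAP4 had 0.17 and -1.31, where the mean was -0.41 and 0.33.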

How the data were processed

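RNA was labelled with Cy5 (sample) and Cy3 (reference) and hybridized to arrays of yeast ORFs. The authors deposited normalized log2 ratios, corrected by them for technical biases, 1 value per ORF and array. The normalization method and the sharing of batch reference RNA between arrays are not given in the sources used here. Nothing was rescaled. The 6132 ORFs were named through RefSeq, which held 5665 of them. The 34 genes and 10 lists of related genes were chosen with earlier results of these data known.

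Differences were fitted with limma 3.58.1 (R 4.3.3) to all ORFs with a value on every array of a fit. P-values were adjusted by Benjamini-Hochberg over all ORFs tested, at a threshold of 0.05. Strains were compared on 5 log-phase arrays. In chemostats the course was the replicate, its baseline the mean of its arrays before onset. A separate culture for each course is not stated, so the courses of a limitation may not be independent. Separate cultures are not stated for the log-phase replicates, so p-values there measure the spread between arrays, which may be technical. Named genes were those with the 3 largest increases and decreases among calls of the same sign in every array or course, both isoform pairs, complex II and HAP4, and in each further list the 2 largest changes called. The fits were tested on simulated data. Alternatives changed the moderation, missing values, centring, baseline, time window, blocks and samples. Sample labels of the glucose-limited heat shock times, and of some arrays before onset in histidine limitation, conflict with their titles, and the titles were followed.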

Additional observations from a re-analysis of the deposited data

Results flagged for a closer look

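In 5 of 70 checks of a gene's steady-state values within a limitation, 1 course stood apart from the rest by Dixon's criterion, which chance meets in about 1 of 20. SDH4 was -0.94 in the glucose-limited NaCl course, while the other courses lay between -0.46 and -0.33. QCR9 was -0.83 before glucose addition, while the other glucose-limited courses lay between -0.53 and -0.42. Under histidine limitation QCR8 (0.44, others -0.02 to 0.05) and ATP2 (0.77, others 0.04 to 0.08) stood apart in the NaCl course and COX7 (0.14, others -0.11 to -0.07) in the heat shock course.

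The effect of glycerol differed between the strains by limma's test of the difference for 23 of 32 genes, all with lower ratios in adh1 cells. Among the named ones the difference was -1.56 for SDH2, -1.38 for CYT1, -1.22 for RIP1, -0.66 for SDH1, -0.72 for SDH3, -0.47 for SDH4, -0.80 for CYC1, -0.86 for CYC7, -1.0 for COX5A and -1.02 for COX5B.

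Between the limitations 12 genes lay below 0 in every glucose-limited and above 0 in every histidine-limited steady state, a difference that was not tested. The mean early change after NaCl was -0.87 under glucose limitation and 0.33 under histidine limitation, a difference of -1.20 between 1 course of each that was not tested either.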

How the results depend on the processing

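The counts of called genes in both strains, in their difference and under glucose limitation stayed within 1.5 times under every alternative run, and leaving out each array or course in turn gave 22 to 30 in adh1 cells, 29 to 31 in wild type, 18 to 22 for the difference and 29 to 30 under glucose limitation. Deviations from the strain mean correlated at 0.05 and -0.00 between same-numbered arrays of the strains. With 2 wild-type arrays these deviations mirror each other, so the values cannot settle whether shared replicate numbers mark a shared batch. With the numbers as a replicate block 26 genes were called in adh1 cells, 31 in wild type and 17 for the difference. For the early stress response 1 gene was called, 0 against the batch reference and 0 to 2 without 1 course. Against the batch reference, 2 genes were called for the later response and 1 for the difference between limitations, where the mean over the genes was -1.27 in place of -0.46. Under histidine limitation leaving out a course gave 5 to 12 calls, 5 without NaCl, of which 4 were among the 11, and 12 without clotrimazole. The mean over the 32 genes with a value in wild type, 1.51, became 1.61 as a median, 1.56 without COX5B and CYC7 and 1.52 with arrays centred, and that over all 34 in adh1 cells, 0.76, became 0.68 as a median and 0.82 without COX5B and CYC7.

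Signs turned only for values that had passed no threshold. Against the batch reference the early change was -0.73 for SDH1, -0.29 for SDH3 and -0.11 for COX5B, the later change -0.029 for SDH4 and -0.46 for CYC7, and the difference between limitations -0.19 for SDH4. With an averaged steady state the early change of SDH2 was 0.087, and over 1 to 10 h the later changes of SDH1 and COX5B were 0.0038 and 0.017. Without 1 course the early change ranged from -0.26 to 0.30 for SDH2, from -0.12 to 0.19 for SDH3 and from -0.38 to 0.16 for HAP4, and the later change of COX5B from -0.10 to 0.064. The difference between limitations ranged from -0.33 to 0.71 for SDH4, from -1.83 to 0.72 for CYC1, from -1.01 to 0.66 for CYC7 and from -0.83 to 0.15 for COX5A, and COX5A under histidine limitation from -0.11 to 0.0065. Of the alternatives for single named genes, 794 kept direction and call, 38 lost the call, 9 gained one and 26 turned the sign. The cause of these changes was not tested. Few arrays per group and the absence of dye swaps limit all values.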
